A study of Mus musculus with 16 samples.

Results

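The regions described here are gene ends at which open chromatin was called at every stage of a chemical reprogramming series in mouse cells. Members were selected on coverage values: a merged peak region had to overlap a peak in each of the 8 deposited lists and lie within 1 kb of either end of a protein-coding gene of RefSeq. The rule left 7087 regions of 165616 in all. They covered 10.5 Mb and had a gene end of 8283 of 21883 protein-coding genes (37.9%) within 1 kb. Because the rule used coverage in all 8 lists, presence in every list is not a result, and heights in the same lists are given as a description without a test.

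ATAC-seq records where the Tn5 transposase can insert adapters into DNA, and so marks chromatin that is not wrapped tightly in nucleosomes. The 16 samples make 8 stages with 2 samples each. The induced pluripotent stem cells (iPSC) were grown on feeder cells in medium with LIF, the GSK3 inhibitor CHIR99021 and the MEK inhibitor PD0325901. Cells at days 2, 4, 6, 8, 10 and 12 are labelled as intermediates of reprogramming, and day 0 is the starting mouse embryonic fibroblasts (MEF) in serum medium. All stages descend from fibroblasts labelled 129XOG2 from E13.5 embryos. Feeder cells are themselves fibroblasts, and what share of the iPSC libraries they made up is unknown here. Each stage is represented by a single deposited peak list with both samples behind it, so there was no replicate spread, no test between stages and no p-value. In bulk samples, fewer cells with an open region and less opening per cell cannot be told apart.

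Promoters of genes that most cells need are commonly embedded in CpG islands and carry a nucleosome-depleted stretch just before the start site. Broadly acting factors bind there: SP and KLF factors at GC boxes, the trimer NF-Y at CCAAT boxes, ETS factors, NRF1, which activates many nuclear genes of mitochondrial function, and YY1. Promoters of tissue-specific genes more often have a TATA box and fewer CpG dinucleotides. The question here is which genes and sequences lie at the ends that were covered from fibroblast to pluripotent cell.

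Sequences before the start of 4 members show the range of these promoters. They are the member with the largest mean height (Hjurp), the steadiest (Polr1b), and the members with the largest and the smallest height in iPSC over day 0 (Mei4 and Kctd11) among those whose summits lay within 200 bp of a start. The steadiest was sought among members with a pileup of at least 10 in every list but day 12. All 4 were chosen after their values were seen. Each run is the 250 bases before the annotated start, 5′ to 3′ on the gene's strand, from the RefSeq promoter table of GRCm38.p6, with matches to any of 10 searched motifs in capitals.
Hjurp, chr1:88277580-88277829, minus strand: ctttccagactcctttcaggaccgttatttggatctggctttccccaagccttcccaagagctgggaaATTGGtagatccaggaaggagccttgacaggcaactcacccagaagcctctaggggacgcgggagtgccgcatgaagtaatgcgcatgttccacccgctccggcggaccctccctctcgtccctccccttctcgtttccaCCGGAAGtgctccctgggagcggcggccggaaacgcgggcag
Polr1b, chr2:129100746-129100995, plus strand: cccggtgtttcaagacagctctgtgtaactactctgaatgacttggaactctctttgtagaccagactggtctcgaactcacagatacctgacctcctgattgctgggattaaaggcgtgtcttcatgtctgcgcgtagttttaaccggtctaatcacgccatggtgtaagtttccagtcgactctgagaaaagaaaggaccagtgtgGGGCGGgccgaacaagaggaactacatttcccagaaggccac
Mei4, chr9:81863420-81863669, plus strand: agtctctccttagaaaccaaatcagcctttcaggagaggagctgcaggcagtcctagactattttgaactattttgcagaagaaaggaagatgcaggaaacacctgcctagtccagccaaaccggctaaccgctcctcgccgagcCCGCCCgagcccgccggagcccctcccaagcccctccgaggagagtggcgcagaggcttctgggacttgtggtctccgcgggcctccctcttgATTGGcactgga
Kctd11, chr11:69880986-69881235, minus strand: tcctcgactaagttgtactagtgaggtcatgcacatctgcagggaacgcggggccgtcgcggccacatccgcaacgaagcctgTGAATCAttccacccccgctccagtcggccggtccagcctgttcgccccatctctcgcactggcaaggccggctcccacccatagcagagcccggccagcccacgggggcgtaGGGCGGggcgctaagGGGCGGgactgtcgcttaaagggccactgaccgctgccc
The capitals mark a CCAAT box and an ETS site at Hjurp, a GC box at Polr1b, a GC box and a CCAAT box at Mei4, and an AP-1 site and a pair of GC boxes at Kctd11. The GC content of these stretches was 60.8% at Hjurp, 49.6% at Polr1b, 58.8% at Mei4 and 66.8% at Kctd11.

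Gene ends made up most of what was covered throughout. Of the 8975 regions covered in all 8 lists, 79.0% (exact Clopper-Pearson 95% interval 78.1 to 79.8) lay within 1 kb of a gene end, and the other 1888 were distal. The share near a gene end was 48.7% among the 3812 regions covered in 7 lists, 25.7% in 6 lists, 9.18% in 4 lists and 5.22% of the 27814 regions covered in 2 lists. Intervals cover counting error only, and sequenced reads without molecular identifiers are not independent molecules.

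Just outside the rule were 1855 gene-end regions covered in 7 of the 8 lists. The missing list was day 12 for 1184 of them, day 4 for 231, iPSC for 143, day 6 for 115, day 0 for 100, day 8 for 41, day 10 for 34 and day 2 for 7. Day 12 also had the lowest background pileup, 0.248 against 0.682 to 3.08 in the other lists, so absence there cannot be told apart from low depth. Regions that missed day 12 alone had a median summit pileup of 26 in iPSC and 29 at day 0, while members had 44 in iPSC and 45 at day 0. On the distance side, the farthest members inside the limit, measured to the gene ends that the rule used, were by Pcmtd1 and Ankrd12 (1000 bp each) and Zmym3 (998 bp), with summit pileups of 120, 45 and 21 in iPSC. By the starts of the RefSeq promoter table, which the rule did not use, the regions of Ankrd12 and Zmym3 hold a start, so only Pcmtd1 of these 3 lay at the limit by both. The nearest regions outside it were by Tprgl (1002 bp), Klf10 (1003 bp) and Bclaf1 (1007 bp), with 37, 57 and 72 in iPSC.

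Members were among the best-scored peaks of each list. The summit pileup, recovered from the deposited fold and −log10 p, is the number of reads or fragments stacked over the summit base. Which of these the pileup counts is not known here. Its median over the members was 45, 82, 31, 42, 36, 45 and 14 at days 0 to 12 and 44 in iPSC. Depth sets these levels, so peaks were also ranked within each list by the deposited −log10 q of their summit. By that rank the median member stood at percentile 81.8, 89.0, 85.2, 86.7, 88.2, 88.2 and 80.4 of the lists of days 0 to 12 and 84.5 of the iPSC list. Distal regions covered in all 8 lists had medians between 71.8 (day 12) and 84.2 (day 2), and gene-end regions covered in 1 to 7 lists between 42.9 (day 0) and 54.4 (day 8). Members held 18.6% of the peaks of day 8 but 77.4% of those above percentile 90, and 14.9% of the peaks of day 0 but 45.6% of those above percentile 90. A minority ranked low: between 214 members (day 2) and 843 members (day 12) lay below the middle of the list.

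**Figure D1:**
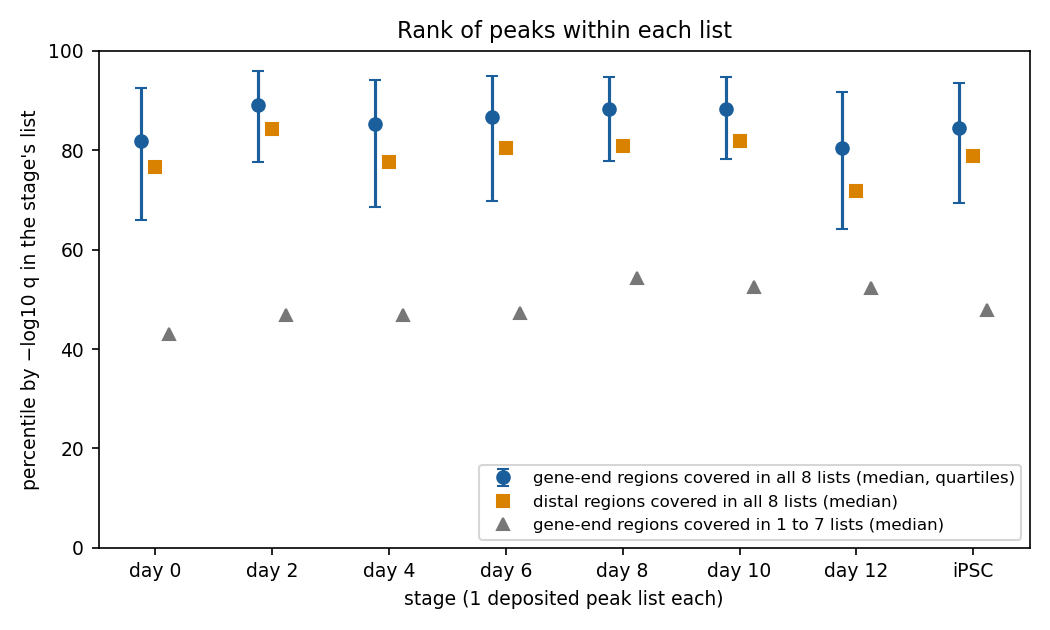
Percentile of peaks by −log10 q within the list of each stage, on an axis from 0 to 100. Circles with bars are medians and quartiles of the 7087 gene-end regions covered in all 8 lists, squares the medians of 1888 distal regions covered in all 8, and triangles those of gene-end regions covered in 1 to 7 lists. The circles lie between 80.4 and 89.0, above the squares at each stage, and the triangles stay between 42.9 and 54.4.

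By median width, members were slightly above constitutively covered distal regions and well above other gene-end regions. The median member was 1395 bp wide (quartiles 1144 and 1722 bp, range 350 to 4751 bp), while constitutively covered distal regions had a median of 1324 bp and gene-end regions covered in 1 to 7 lists 781 bp. Merging over 8 lists widens a region: the median member peak was 960, 1245, 771, 844, 698, 793 and 411 bp in the lists of days 0 to 12 and 912 bp in that of iPSC. Summits held their place: the tallest summits of the 8 lists spanned a median of 193 bp within a member, against 266.5 bp within a constitutive distal region. In 22.4% of members all 8 summits fell within 100 bp.

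The widest member lay at Tgif1, which encodes a homeobox repressor of TGF-beta responses, and ran over 4751 bp (chr17:70848807-70853557, mm10). Pcdh7, a protocadherin gene, had 4551 bp, Myc 4427 bp, Klf13 4286 bp and Ptprg, a receptor tyrosine phosphatase gene, 4174 bp. These wide members were not all high ones. The pileups of Tgif1 were 55, 107, 28, 41, 28, 37 and 15 at days 0 to 12 and 48 in iPSC, and its median percentile by −log10 q was 54.3, while Klf13 had 122, 195, 90, 105, 71, 78 and 33 at those days and 98 in iPSC, at percentile 96.1.

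Nearly all members sat at gene starts and not at the other end. Strand was known for 17491 genes through the promoter table, and 5878 members had a gene end whose kind could be told. Of these, 5821 (99.0%, interval 98.7 to 99.3) were at a start and 57 only at the end where transcription stops. A start of the promoter table lay inside 5579 members and within 1 kb of 5707. The median offset of the tallest summit from the start was -48, -43, -49, -57, -47, -48 and -46 bp at days 0 to 12 and -45 bp in iPSC, with negative values upstream. The middle of the distribution thus hardly differed between stages, while its spread did. Summits within 200 bp of the start made up 72.4%, 74.0%, 75.1%, 73.4%, 80.6%, 80.3% and 78.1% at days 0 to 12 and 74.3% in iPSC.

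**Figure D2:**
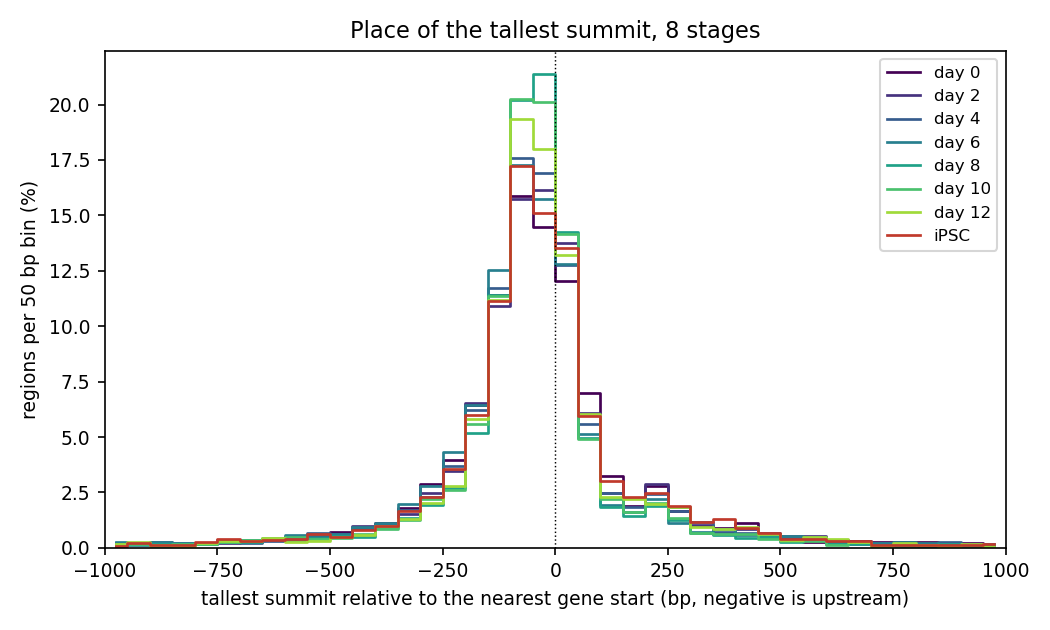
Share of the 5707 regions with a start in the promoter table (vertical axis, percent per 50 bp bin) by the distance of the tallest summit from that start in bp, negative upstream, 1 line per stage. All 8 lines peak just before the start, and those of days 8 and 10 are the tallest and narrowest.

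The 57 members at a stop end alone were lower than those at starts, with a median mean relative height of -0.48 against -0.02. Relative height is the log2 of a region's summit pileup over the median of all 7087 members in the same list, so that 0 is the typical member. Only 3 of the 57 had a start of any other annotated gene type within 1 kb. The tallest lay by Clec11a, which encodes a secreted growth factor for skeletal and blood progenitors, with 108, 249, 94, 144, 77, 83 and 32 at days 0 to 12 and 130 in iPSC. It was followed by Eps8l1, Midn, Fhl3, a LIM-domain gene, and Lars2, the gene of mitochondrial leucyl-tRNA synthetase. At Fhl3 the pileup was 46 in iPSC and 120 at day 0 (log2 -1.35, counting SE 0.25), and at Lars2 146 in iPSC and 78 at day 0 (0.94, counting SE 0.20). On the scale of the deposited fold, centred on the members' median, these log2 values were -0.19 at Fhl3 and 0.47 at Lars2.

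Starts on both strands were more frequent at members than at other gene-end regions. Of the 5707 members with a start, 736 (12.9%, interval 12.04 to 13.79) had protein-coding starts on both strands within 1 kb, while 195 of 5118 gene-end regions covered in 1 to 7 lists did (3.81%, interval 3.30 to 4.37). With starts of any gene type the shares were 23.6% and 12.8%. Whether the starts of such a pair point away from each other was not examined. Members were also wider, with a median of 1395 bp against 781 bp, and the part of width in these shares was not tested. Members with protein-coding starts on both strands were also taller at every stage than the 4358 with starts on 1 strand, by between 0.19 (iPSC) and 0.37 (day 6) on the log2 scale. An example is the member of Mrpl18 and Tcp1 (chr17:12915823-12917084), which encode a mitochondrial ribosomal protein and a subunit of the cytosolic chaperonin. Its pileups were 77, 170, 90, 113, 76, 78 and 21 at days 0 to 12 and 95 in iPSC. Such members also hold a pair of promoters in a single region, and the part that this has in their height was not tested.

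The base composition was that of CpG-island promoters. Over the 300 bases from 250 before to 50 after the start, the median GC content was 62.3% in the 5707 member promoters, 59.0% in 4987 promoters by gene-end regions of 1 to 7 lists, 46.3% in 6767 promoters with no region and 56.3% over all 21262 promoters of the table. The ratio of observed to expected CpG had medians of 0.81 in member promoters, 0.62 by regions of 1 to 7 lists, 0.18 with no region and 0.57 over all. It reached 0.6 in 84.3% of member promoters and in 47.7% of all promoters.

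The same promoters were searched for 10 motifs. The letters searched were GGGCGG for the GC box, CCAAT for the CCAAT box, CCGGAAG for the ETS site, GCGCATGC for the NRF1 core, TGACGTCA for the CRE of CREB and ATF factors, CACGTG for the E-box, AAGATGGC for the YY1 site, TCTCGCGA for the CGCG element, TATAAA for the TATA box and TGANTCA for the AP-1 site, all on both strands. A match is a run of letters and not a shown binding site. The NRF1 core and the CGCG element overlap their own reverse complements, so a site read on both strands can give 2 matches, but each promoter is counted once in the shares.

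GC boxes were in 73.7% of member promoters, 46.2% of all promoters and 11.2% of promoters with no region. ETS sites were in 21.3% of member promoters and 11.6% of all, and NRF1 cores in 6.82% and 3.51%. YY1 sites stood in 5.08% and 3.05%, E-boxes in 11.02% and 7.84%, CREs in 3.91% and 2.23%, and CGCG elements in 2.72% and 1.41%. CCAAT boxes were closer to the table's level, with 43.4% (interval 42.1 to 44.7) of member promoters and 38.2% of all. On the other side were TATA boxes, in 5.40% of member promoters and 12.6% of all, and AP-1 sites, in 3.91% and 6.99%. GC-rich letters are more frequent by composition in GC-rich promoters, and the part of composition in these shares was not tested.

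Some motifs were more frequent in some stretches of member promoters than in others, in part as in promoters with no region. YY1 sites clustered just inside the transcribed part: 59.5% of 301 matches lay in the 50 bases from the start on, against 28.2% of 85 matches in promoters with no region. CCAAT boxes were most frequent from 100 to 50 bases before the start (29.1% of 4204 matches, and 25.8% of 3655 in promoters with no region). ETS matches had a median centre 31.5 bases before the start and CREs 45.0, against 35.5 and 59.0 in promoters with no region. TATA matches in member promoters were more frequent just before the start than next to it upstream, but most frequent farthest from it. Of 326 matches, 20.9% lay in the last 50 bases before the start, and 6.75% from 100 to 50 bases before it. The 50 bases farthest upstream held 28.2%. In promoters with no region, 29.1% of 2052 matches lay in the last 50 bases before the start.

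For each motif, the tallest member at a start that carries it gives an example. The stretches below are 60 bases, or 30 where the match lies after the start, 5′ to 3′ on the gene's strand from the same RefSeq table of GRCm38.p6, with the motif in capitals.
Evi5l, GC box, chr8:4166476-4166535, plus strand: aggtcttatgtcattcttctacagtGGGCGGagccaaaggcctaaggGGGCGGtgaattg
Hjurp, CCAAT box, chr1:88277727-88277786, minus strand: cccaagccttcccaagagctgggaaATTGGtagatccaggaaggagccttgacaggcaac
Hjurp, ETS site, chr1:88277587-88277646, minus strand: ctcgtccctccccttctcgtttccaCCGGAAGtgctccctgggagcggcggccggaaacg
Etfdh, NRF1 core, chr3:79628859-79628918, minus strand: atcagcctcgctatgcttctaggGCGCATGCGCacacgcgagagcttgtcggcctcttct
Pgap2, CRE, chr7:102210408-102210467, plus strand: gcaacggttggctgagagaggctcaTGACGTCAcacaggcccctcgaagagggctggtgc
Dnpep, E-box, chr1:75317693-75317752, minus strand: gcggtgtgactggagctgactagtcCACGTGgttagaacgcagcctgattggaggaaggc
Cnot3, YY1 site, chr7:3645275-3645304, plus strand: cctccgccgccGCCATCTTggaccgggccc
Rbm15, CGCG element, chr3:107333450-107333509, minus strand: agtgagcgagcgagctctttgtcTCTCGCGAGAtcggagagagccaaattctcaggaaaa
G3bp1, TATA box, chr11:55469502-55469561, plus strand: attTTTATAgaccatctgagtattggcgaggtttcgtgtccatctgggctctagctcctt
Rtn4, AP-1 site, chr11:29692902-29692931, plus strand: tgccgggaaggTGAGTCAcgccaaactggg
At Etfdh, which encodes an electron transfer enzyme of mitochondria, and at Rbm15, an RNA-binding protein gene, the capitals run over 10 bases because matches on both strands overlap. The TATA box of G3bp1, a stress granule gene, is centred 244 bases before the start.

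Members with a CCAAT box were taller at every stage. Their median relative height minus that of the 3231 members without it was 0.37, 0.35, 0.35, 0.37, 0.43, 0.40 and 0.42 at days 0 to 12 and 0.38 in iPSC. Median pileups were 52 with the box and 40 without in iPSC, and 53 and 41 at day 0. The height went up with the number of boxes: the median of the mean relative height was -0.17 with 0, 0.01 with 1, 0.31 with 2 and 0.69 with 3 or more boxes (420 promoters). In 4 classes of GC content, from low to high, the difference was 0.33, 0.47, 0.39 and 0.42. With the deposited fold in place of the pileup, the difference of the mean heights was 0.19 and not 0.38.

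Members with an NRF1 core had another course. The median relative height of these 389 regions minus that of the rest was 0.00, -0.09, 0.00, 0.10, -0.13, -0.17 and -0.35 at days 0 to 12 and -0.40 in iPSC. Between iPSC and day 0, 275 of the 389 (70.7%) were lower in iPSC, against 50.6% of 5318 members without the core. More than 2-fold lower were 51 (13.1%, interval 9.92 to 16.9) with the core and 255 (4.80%, interval 4.24 to 5.40) without, and more than 2-fold higher 6 (1.54%) and 293 (5.51%). In all 4 classes of GC content the median of iPSC over day 0 was lower with the core, between -0.22 and -0.44, than without it, between -0.05 and 0.03. The median of iPSC over day 0 with the core minus that without it was -0.32, and on the scale of the deposited fold, which divides by the local background, it was -0.01. The local background, solved from the deposited fold and −log10 p, had a median of 3.93 with the core and 5.18 without in iPSC, and 6.35 and 5.91 at day 0. It is not a separate measurement of the surroundings, and its part in the difference between the scales was not tested.

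**Figure D3:**
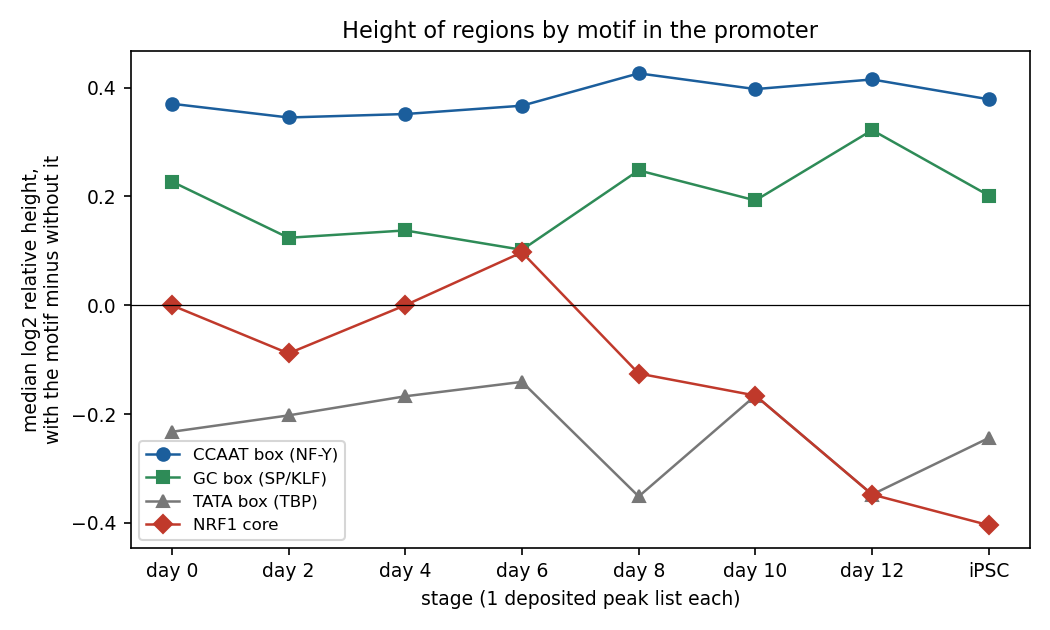
Median log2 relative height of regions whose promoter has a motif minus that of regions without it (vertical axis) at each stage, for 5707 regions with a start. The CCAAT line lies between 0.35 and 0.43 throughout, the TATA line is below 0 at every stage, and the NRF1 line is at 0.00 at day 0 and at -0.40 in iPSC.

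The stretches that follow hold the NRF1 core of the 4 members with that motif that were lowest in iPSC over day 0. They were chosen after their values were seen, and the core is in capitals. The stretch of Abhd5, which lies close to the start, is 30 bases.
Snrnp70, chr7:45395767-45395826, minus strand: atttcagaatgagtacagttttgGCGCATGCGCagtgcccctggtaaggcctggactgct
Ndufa6, chr15:82354340-82354399, minus strand: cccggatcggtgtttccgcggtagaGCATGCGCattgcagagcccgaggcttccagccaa
Abhd5, chr9:122351581-122351610, plus strand: acaggcgggcaGCGCATGCgtgtctgcgag
Hp1bp3, chr4:138217043-138217102, plus strand: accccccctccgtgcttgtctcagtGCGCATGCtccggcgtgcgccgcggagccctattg
Snrnp70 encodes a protein of the U1 spliceosomal particle. Its pileups were 78, 123, 66, 116, 33, 46 and 5 at days 0 to 12 and 20 in iPSC (log2 iPSC over day 0 -1.93, counting SE 0.36). Its promoter held 6 overlapping or separate matches. Ndufa6, a gene of respiratory complex I, had 70, 129, 62, 65, 34, 48 and 12 at days 0 to 12 and 18 in iPSC (-1.93, counting SE 0.38). On the fold scale the log2 values were smaller, -0.63 at Snrnp70 and -0.87 at Ndufa6. Abhd5, an activator of fat breakdown, had 17 in iPSC and 62 at day 0, and Hp1bp3, a heterochromatin protein gene, 17 in iPSC and 59 at day 0. In each of these 4 the iPSC pileup was below that of every day but day 12.

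Genes of basic cell functions had a member in larger shares than genes in general. Over all protein-coding genes the share with a region covered in all 8 lists was 37.9%, and each of 15 lists of widely used genes was above it. Translation factors had a member at 34 of 40 genes, spliceosome and mRNA processing genes at 34 of 40, chaperones at 25 of 31, cyclins and mitosis genes at 26 of 33, RNA polymerase II and general transcription factors at 33 of 42, AP-1 and immediate early genes at 18 of 23, DNA replication genes at 32 of 41, and glycolysis and cholesterol genes at 23 of 30. Lower in this order were proteasome subunits with 24 of 32, mitochondrial ribosomal proteins with 42 of 60, oxidative phosphorylation with 32 of 47, chromatin regulators with 29 of 43, autophagy and lysosome genes with 22 of 34, cytosolic ribosomal proteins with 51 of 79 and replication-dependent histones with 24 of 40. Genes were counted by the gene ends that the rule used: Orc1 and Orc4 of the replication list and Atp5d of oxidative phosphorylation had a promoter-table start within 1 kb of a member but no such end, and are not among those counted. The rule fixes the overall share, and the lists were chosen with earlier results in view, so the counts describe the members only.

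Lists of cell identity were at the other end. Ends of 7 of 26 fibroblast and mesenchyme genes (26.9%, interval 11.6 to 47.8) had a member: Col1a1, Fn1, Vim, Twist1, Snai1, Snai2 and Cdh2. Of 24 genes of the pluripotency network 4 did, namely Klf2, Klf5, Tbx3 and Tet2, while Nanog, Esrrb, Zfp42 and Pou5f1 did not. Developmental factors had 4 of 39, genes of other differentiated tissues 4 of 32 (Apoa1, Actn3, Syt1 and Kdr), epithelial genes 1 of 18 (Krt8) and spermatid genes 1 of 15 (Tssk6, in a region shared with Ndufa13). As a check of the labels, an end of 19 of the 26 fibroblast genes was covered in iPSC and of 22 at day 0. An end of 17 of the 24 pluripotency genes was covered in iPSC and of 10 at day 0. Over all 21883 protein-coding genes the counts were 13049 in iPSC and 12281 at day 0. The same count for the 15 spermatid genes was 3 in iPSC and 14 at day 0, a larger share at day 0 than that of the fibroblast list. What lies behind the spermatid count was not tested. The part of feeder fibroblasts in the ends covered in iPSC was not tested.

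**Figure D4:**
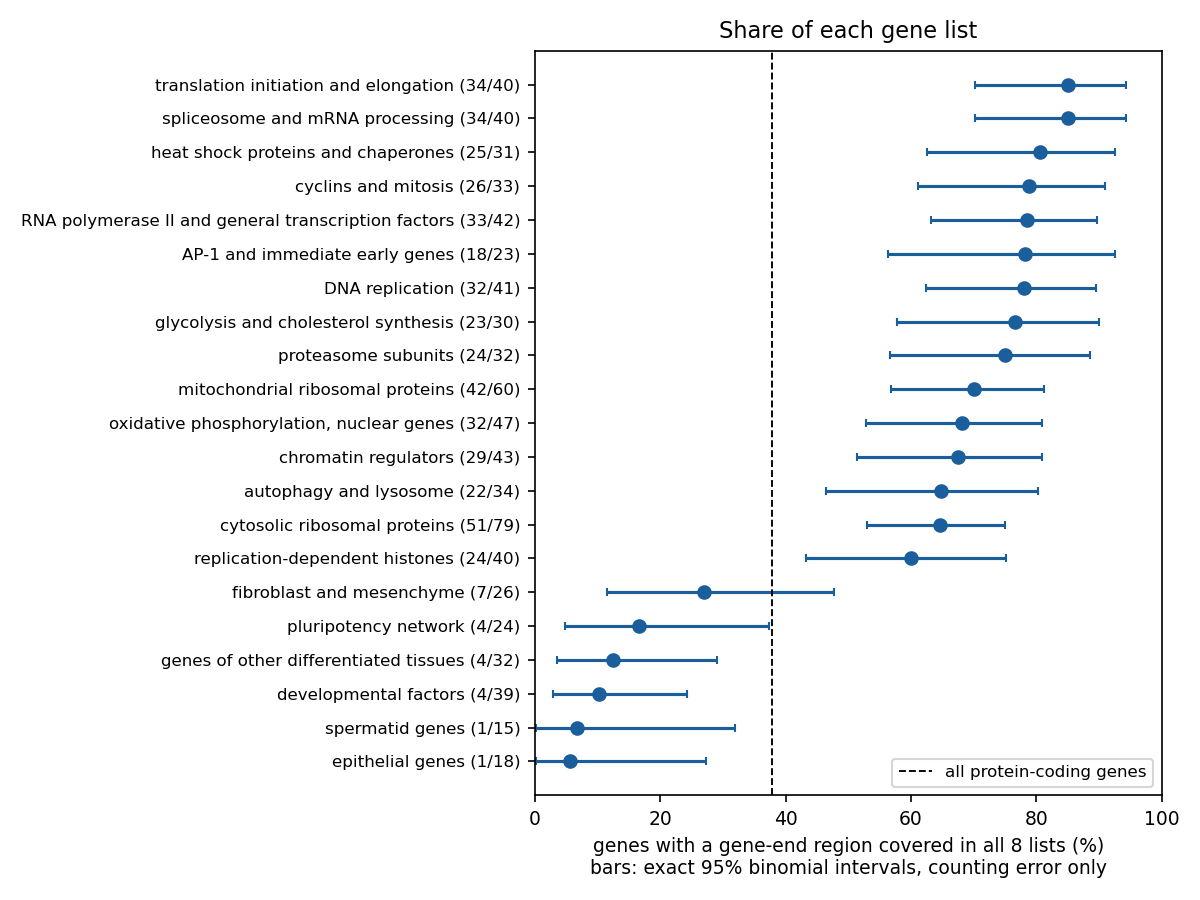
Share of the genes of each list with a gene-end region covered in all 8 lists (horizontal axis, percent), with exact 95% binomial intervals, and in brackets the counts. The dashed line is the 37.9% of all protein-coding genes, and the 15 lists of widely used genes lie right of it, while the 6 lists of cell identity lie left of it, with the interval of the fibroblast list across it.

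Symbol families, read off after the values were seen, spread more widely still. Olfactory receptor genes (Olfr) had a member at 0 of 1110, which allows a share of up to 0.270%, vomeronasal genes (Vmn) at 1 of 355, keratins and others with the prefix Krt at 2 of 53 and collagens and others with Col at 7 of 44. Centrosomal Cep genes had 32 of 38, Cdc genes 25 of 32, vesicle-sorting Vps genes 27 of 35, Rab GTPase genes 51 of 69, Mediator subunits (Med) 22 of 30 and zinc finger Zfp genes 211 of 397. The X chromosome had a member at 22.5% of 966 genes and the Y chromosome at 1 of 256, Ddx3y, an RNA helicase gene, whereas autosomes ranged between 32.5% (chromosome 7) and 46.2% (chromosome 12).

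In the 3 lists in which at least 80% of the genes had a member, most of those without were just outside the rule: 4 of 6 in the spliceosome list, 5 of 6 in the translation list and 5 of 6 among chaperones had an end covered in 7 lists. Of the 6 spliceosome genes without a member, Sf3a3, Sf3b3 and Eftud2 had an end covered in 7 lists with day 12 missing, Snrpf missed day 4 alone, Snrpd1 missed days 4 and 12, and Snrpc missed day 4 and iPSC. Among translation factors Eif2s2, Eif2b5, Eif3g and Eif3i missed day 12 alone, Eif3l missed day 4 alone, and Eif2b1 was covered in 5 lists. Among chaperones Hspa1a and Dnajb6 missed day 12, Hspb1 and Dnajc2 missed day 4, no single region of Dnaja2 was in more than 7 lists, and Hsf2 had an end in 0. If day 12 is left out of the rule, 38 of 40 genes of the translation list, 37 of 40 of the spliceosome list and 62 of 79 of the cytosolic ribosomal list had a region in every remaining list, beside 43.5% of all protein-coding genes.

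Single promoters of these lists show the levels behind the counts. Rpl15, a ribosomal protein gene on a region shared with Nkiras1, had pileups of 98, 183, 75, 86, 78, 93 and 43 at days 0 to 12 and 110 in iPSC, between percentiles 99.2 and 99.8 by −log10 q. Hnrnpc, an RNA-binding protein gene, had 150, 265, 105, 134, 92, 100 and 52 at those days and 153 in iPSC. Both were high at every stage. Hmgcs1, an enzyme gene of cholesterol synthesis, had 148, 245, 105, 93, 74, 98 and 39 and 198 in iPSC; its log2 of iPSC over day 0 was 0.45 (counting SE 0.16) by relative height and -0.15 on the scale of the deposited fold, so no direction held. Stip1, a cochaperone gene, had 157, 203, 84, 109, 99, 86 and 42 and 89 in iPSC; the same values were -0.79 (counting SE 0.19) and 0.03, again with no direction held. Mcm3, a subunit of the replicative helicase, had 66, 151, 77, 79, 72, 81 and 29 and 105 in iPSC, with 0.70 (counting SE 0.23) by relative height and 0.36 on the fold scale.

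Most of the widely used lists had a median slightly lower in iPSC than at day 0 relative to all members, but the choice of scale matters here. The median log2 of iPSC over day 0 was -0.44 over 34 translation regions, -0.35 over 33 regions of RNA polymerase II and general factors and -0.27 over 50 ribosomal protein regions, beside -0.01 over all members. In the translation list 25 of 34 regions were lower in iPSC, 7 of them by more than 2-fold with 0 higher by as much, and in that of RNA polymerase II 25 of 33 were lower, while over all members 3601 of 7087 (50.8%) were lower, 5.11% were lower by more than 2-fold and 5.50% higher by as much. On the scale of the deposited fold, centred in the same way, these 3 medians were -0.23, -0.17 and -0.40, and 48 of the 50 ribosomal regions were lower in iPSC. By that scale 3637 of all 7087 members were lower, and by pileup 32 of the 50 ribosomal regions were. Chaperones (-0.34) and AP-1 and immediate early genes (-0.39), in contrast, had medians of 0.00 and 0.22 on the fold scale, so no direction held for them. Proteasome subunits (-0.09 and 0.07), cyclins and mitosis genes (0.02 and -0.04) and histones (-0.07 and 0.08) also differed in sign between pileup and fold.

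The lists also differed in their motifs. All 15 promoters of histone members had a CCAAT box and 8 had a TATA box, while 2 had a GC box. CCAAT boxes were in 15 of 21 promoters of cyclins and mitosis genes, 18 of 26 of DNA replication and 14 of 18 of glycolysis and cholesterol synthesis, beside 2476 of 5707 over all members. E-boxes of the form CACGTG were in 7 of 15 promoters of autophagy and lysosome genes and 8 of 24 of translation factors, beside 629 of 5707 over all. ETS sites were in 16 of 37 promoters of cytosolic and 15 of 37 of mitochondrial ribosomal proteins, beside 1213 of 5707. They were not particular to these lists: chaperones had 7 of 18, DNA replication 10 of 26 and RNA polymerase II and general factors 10 of 27. Proteasome subunits had 7 of 19 and the spliceosome list 11 of 31. Cyclins and mitosis genes, at 2 of 21, and glycolysis and cholesterol synthesis, at 2 of 18, were lower. NRF1 cores were in 7 of 37 promoters of mitochondrial ribosomal proteins, 5 of 25 of oxidative phosphorylation and 0 of 15 of histones, beside 389 of 5707 over all. Translation factors had 4 of 24, RNA polymerase II and general factors 4 of 27 and cytosolic ribosomal proteins 1 of 37. These are counts over few promoters, and members of a histone cluster share duplicated sequence.

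The relative height of a typical member differed little between lists. The SD over the 8 lists had a median of 0.34 on the log2 scale, and 0.42 in constitutive distal regions. Heights are centred on the members' own median, and distal regions had lower median pileups (40 against 45 at day 0 and 11 against 14 at day 12). The part of centring and of counting error in the SD difference was not tested. In 3524 of the 7087 (49.7%) the whole range over the lists was within 2-fold, and in 247 (3.49%) it was above 4-fold. Without day 12, the shallowest list, these were 4237 (59.8%) and 170 (2.40%). The steadiest members were sought among those with a pileup of at least 10 in every list but day 12. They were Polr1b, a subunit gene of RNA polymerase I, Nupl2, a nucleoporin gene, Zfpm1, a cofactor of GATA factors, Ccar1 and Cars, the gene of cysteinyl-tRNA synthetase. Polr1b had pileups of 31, 57, 22, 29, 23, 32 and 9 at days 0 to 12 and 29 in iPSC, an SD of 0.06. Zfpm1, which is much taller, had 104, 194, 77, 99, 84, 106 and 36 and 113 in iPSC, also with an SD of 0.06.

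The tallest member on average was at Hjurp, which encodes the chaperone of the centromeric histone CENP-A. It had 224, 469, 282, 244, 159, 218 and 53 at days 0 to 12 and 183 in iPSC, between percentiles 99.7 and 99.99 by −log10 q. It was followed by Evi5l, Ripk2, a kinase of NOD signalling, Zfp78, Slc22a29, Dnpep, Khsrp, an RNA-binding protein gene, Zbtb20, Gpr108 and Mon1b, with mean relative heights between 1.80 and 1.99. Slc22a29, an anion transporter family gene, stood apart in shape: it was the narrowest member (350 bp), and had 105, 94, 111, 119, 239, 371 and 107 at days 0 to 12 and 159 in iPSC, where the deep day 2 list gave the lowest value. Ripk2 had 113, 215, 125, 86, 177, 184 and 140 and 252 in iPSC (log2 iPSC over day 0 1.19, counting SE 0.16; 0.32 on the fold scale).

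Between iPSC and day 0, whose background pileups were close (1.90 and 1.96), 390 members were more than 2-fold higher in relative height and 362 more than 2-fold lower. That is 5.50% and 5.11% of the members. Over all 16877 regions covered in both lists the shares were 9.46% higher and 9.67% lower, and over constitutive distal regions 10.7% and 9.80%. Members had taller summits, with median pileups of 44 in iPSC and 45 at day 0. Over all peaks of those lists the medians were 21 and 23, and over constitutive distal regions 38 and 40. Heights are also centred on the members' own median. The part of counting error and of centring in these shares was not tested. The middle range of members ran between -0.42 and 0.40 on the log2 scale. The SD of the log2 values was 0.63, while counting error at the median heights is 0.31. With the deposited fold in place of the pileup, 27 of the 7087 members were more than 2-fold higher and 58 lower. Shares over all regions and over distal regions were not computed on that scale, so the comparison with them is by pileup alone.

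The members higher in iPSC by the widest margin were at genes of varied function. Mei4, a gene of meiotic DNA break formation, had 111 in iPSC and 14 at day 0 (log2 3.02, counting SE 0.41), with 61, 34, 22, 32, 45 and 15 at days 2 to 12. Its iPSC value was far above that of every day in relative terms. Aldh1l1, an enzyme gene of folate metabolism, had 77 in iPSC and 11 at day 0 (2.84, counting SE 0.47), with 42, 13, 37, 33, 57 and 28 at days 2 to 12. Ackr3, the gene of an atypical chemokine receptor, had 118 in iPSC and 21 at day 0 (2.52). Hook1, a gene of a microtubule adaptor, had 119 in iPSC and 23 at day 0 (2.40, counting SE 0.33), with 53, 19, 15, 75, 90 and 51 at days 2 to 12. Hook1 thus changed level between days 6 and 8 (log2 2.54, counting SE 0.41). Its SD over the lists, 1.28, was the largest among members with a pileup of at least 10 in every list but day 12. Adgrv1, Stxbp5l and Syt14 had log2 values between 2.35 and 2.37, and Cnot10, a subunit gene of the CCR4-NOT complex with the member at its stop end, 2.73.

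The members lower in iPSC were likewise at genes of varied function. Tob2, an antiproliferative gene, had 11 in iPSC and 63 at day 0 (log2 -2.49, counting SE 0.47), with 92, 34, 49, 43, 50 and 13 at days 2 to 12, and was low in iPSC alone. Kctd11, the gene of a cullin adaptor, had 21 in iPSC and 106 at day 0 (-2.30, counting SE 0.34), with 98, 25, 77, 36, 39 and 12 between. Gna11, a G protein subunit gene, had 15 in iPSC and 74 at day 0 (-2.27). Cd44, the hyaluronan receptor gene of mesenchymal cells, had 17 in iPSC and 74 at day 0 (-2.09, counting SE 0.39), and was already at 11 at day 4. Nsd2, a histone methyltransferase gene, Sgsh, a lysosomal enzyme gene, Rps6ka4 and Khdrbs1 had log2 values between -2.24 and -2.02. On the fold scale the 8 members named as lower had log2 values between -1.15 and -0.44, and the 8 named as higher between 0.33 and 1.08, so the directions were kept and the sizes were smaller. Twist1, a mesenchymal transcription factor gene, had 12 in iPSC and 36 at day 0 (-1.55, counting SE 0.48; -0.68 on the fold scale), with 18, 16 and 4 at days 8, 10 and 12.

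**Figure D5:**
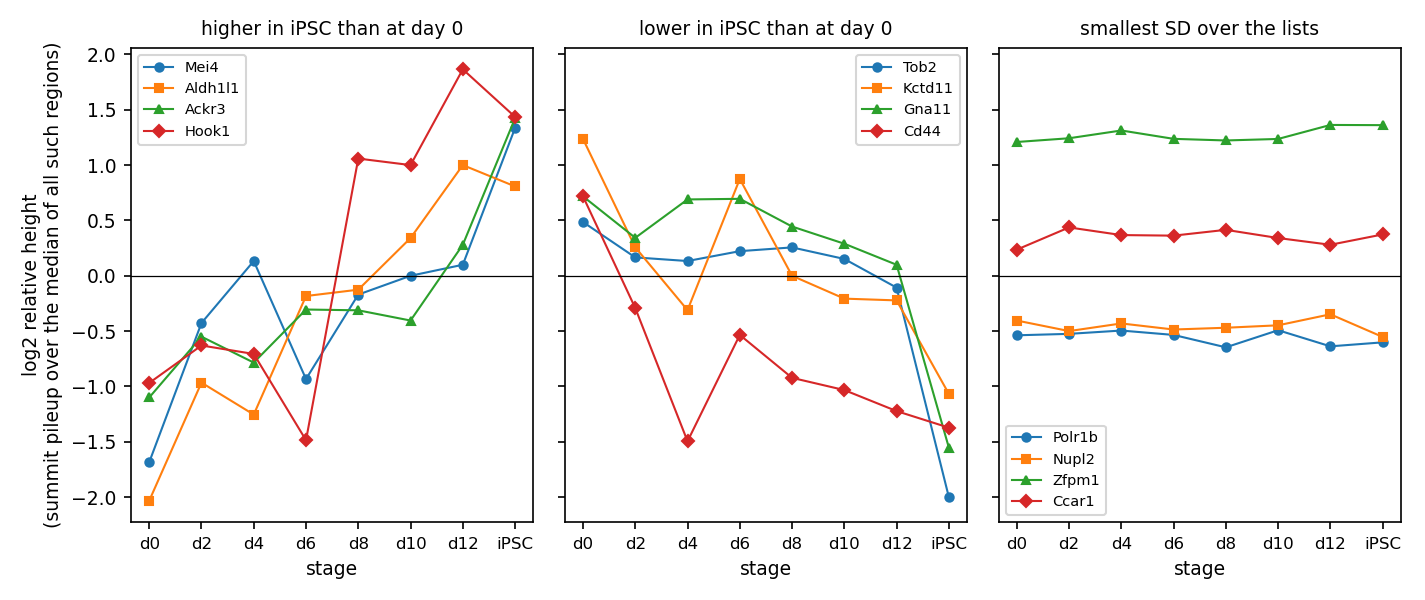
Log2 relative height (vertical axis) of 12 named regions at each stage, 1 line per gene, in panels for regions higher in iPSC than at day 0, regions lower in iPSC and the steadiest regions. Mei4 and Ackr3 are highest in iPSC, Hook1 moves up between days 6 and 8, Tob2 is low in iPSC alone, and the 4 steady lines are nearly flat.

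Promoters of the members past 2-fold in iPSC over day 0 differed in NRF1 cores. The core was in 6 of 299 promoters (2.01%, interval 0.74 to 4.32) of members that were higher and 51 of 306 (16.7%, interval 12.7 to 21.3) of those that were lower, beside 6.82% of all member promoters. GC boxes did not separate them (73.6% and 73.2%). CCAAT boxes were in 39.5% of promoters of higher and 31.0% of lower members, both below the 43.4% over all members. These groups were made from the same heights as the course by motif given above, so they are no separate evidence.

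Day 8 over day 6 was the step between neighbouring days with the widest spread. The SD of the members' log2 differences was 0.53 there, with 0.33 from counting, while it was 0.33 for day 10 over day 8, with 0.32 from counting, and 0.52 for day 12 over day 10, with 0.44 from counting. More than 2-fold higher at day 8 than at day 6 were 213 members (3.01%), and 198 (2.79%) were lower. Over all 19892 regions covered in both lists 3.15% were higher and 18.9% lower, so relative to the members' median regions in general were low at day 8 in a larger share than members. Constitutive distal regions had 4.08% higher and 11.3% lower. For iPSC over day 10, 391 members (5.52%) were higher and 230 (3.25%) lower, beside 18.1% higher and 3.9% lower over 19789 regions. Both steps compare lists of unequal background pileup (0.682 at day 8 and 2.12 at day 6, and 1.90 in iPSC and 0.968 at day 10). The part in these shares of background, of centring and of counting error at the lower summits of regions in general was not tested.

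Among members with a pileup of at least 10 in every list but day 12, largest in spread after Hook1 were Tc2n, Ubxn2a, Fbln5 and Taco1. Fbln5, which encodes an elastic fibre protein of connective tissue, had 50, 129, 56 and 57 at days 0 to 6, 15, 10 and 6 at days 8 to 12 and 40 in iPSC. Taco1, a gene of mitochondrial translation, had 54, 59, 60 and 30 at days 0 to 6, 132, 156 and 37 at days 8 to 12 and 27 in iPSC. Relative to all members, Fbln5 was low and Taco1 high at days 8 to 12. Ubxn2a, a cofactor gene of the p97 ATPase, had 13 at day 6 and 56 at day 8.

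The order of heights was shared most between near stages. Spearman's rho over the 7087 members was highest between days 8 and 10 (0.89) and was 0.75 across the step of days 6 and 8. The iPSC list had rho of 0.63 with day 0, 0.52 with day 6 and 0.72 with day 12. These are descriptions over regions, which share base composition and width, and shallow lists have lower values from counting error.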

How the data were processed

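ATAC-seq peak lists of 8 stages were analysed, each made by the authors from 2 samples. Per the submitters' processing notes the tools were MACS2 2.1.2, Bowtie2 2.2.5, fastp 0.20.1, deepTools 3.4.3 and SAMtools with build mm10. The notes do not say in which way both samples of 1 stage were merged, or whether reads were shifted for the Tn5 cut, so neither step is stated here. The deposited lists hold, per peak, a score, a fold (a ratio of the summit to its local background), a −log10 p-value and a −log10 q-value of the summit, all made by the authors' peak caller. Depth is not given apart from the lists.

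The summit pileup was recovered as the whole number for which the fold equals pileup plus 1 over local background plus 1 and the Poisson tail gives the deposited −log10 p. The tolerance was 0.001, and on simulated peaks 100.0% of pileups were recovered in each list, with backgrounds down to 0.2. Relative height is the log2 of the tallest pileup in a region over the median of the 7087 members in that list, which sets the members' median to 0. Percentiles rank peaks by −log10 q within a list. Counting SEs and exact Clopper-Pearson intervals cover counting error only. With 1 list per stage there is no replicate spread and no test.

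Peaks of chromosomes 1 to 19, X and Y were merged where they overlapped by 1 bp. Gene ends are those of RefSeq (GRCm38), and starts are told apart from stop ends where the promoter table of GRCm38.p6 gives the strand. Chromosome 18 promoters were not used here. All 769 listed genes matched, 40 of them by an older symbol.

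Named genes were up to 3 per gene list by mean height, listed genes without a member where at least 80% had one, the 10 tallest members, the 8 highest and 8 lowest in iPSC over day 0, the 5 steadiest and 5 most variable, the 5 widest, the 5 tallest at stop ends, the tallest per motif, and 3 on each side of the 1 kb limit. Those highest and lowest in iPSC over day 0 had a pileup of at least 10 in both lists. The steadiest and most variable had at least 10 in every list but day 12. The members and gene lists were chosen with earlier results of these data known. Printed upstream examples, NRF1 examples, numbers of CCAAT boxes, classes of GC content, motifs by list and symbol families were chosen after values were seen. Python 3.11.15, numpy 2.4.6, pandas 2.3.3 and scipy 1.17.1 were used.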

Additional observations from a re-analysis of the deposited data

How the results depend on the processing

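No paired analysis was possible because each stage has 1 pooled list, and no replicate could be left out for the same reason. In the sentences that follow, values are the share of constitutive regions near a gene end, the share of genes with a member, the share of members at a start, the members past 2-fold in iPSC over day 0 (in all, higher, lower) and the share of promoters with a CCAAT box, where they moved. The main rule gave 7087 members, of which 752 were past 2-fold, and counts past 2-fold are out of the members of each setting. With the better-scored 50% of each list, which left 4959 members, these values were 83.8%, 27.2%, 99.4%, 324, 175, 149 and 49.3%. With every list at the length of the shortest, which left 5877 members, they were 81.5%, 31.9%, 99.3%, 477, 250, 227 and 46.4%. Where a peak had to cover 50% of the region, 764 members were left, with 80.8%, 4.24%, 99.5%, 48, 17, 31, 50.2% and a median width of 1127 bp. The other wording of that alternative, a region covering 50% of the peak, is always met. With windows of 500 bp the first 2 shares were 76.8% and 36.6%, and with 2.5 kb the first 3 were 82.4%, 40.4% and 98.4%. Without day 12 in the rule they were 72.6%, 43.5% and 98.4%. With 200 bp around summits, genes with a member were 28.3%, members past 2-fold 500 of 5303 with 248 higher, CCAAT 47.1% and width 343 bp. On the gene strand alone CCAAT boxes were in 25.6%. With the deposited fold, 85 of the 7087 members were past 2-fold, 27 higher and 58 lower.

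Chosen after seeing the data, the deposited fold also gave an NRF1 difference of -0.01 in place of -0.32, a CCAAT difference of 0.19 in place of 0.38, and medians of opposite sign for proteasome subunits (0.0702), chaperones (0.0043), histones (0.0808), AP-1 and immediate early genes (0.22) and cyclins and mitosis (-0.0432). The cause was not tested. The shallow day 12 list limits the rule most.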
